A study of Mus musculus with 4 samples.

Results

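The amino acid transporter genes on the array were taken as every gene with a single symbol that begins with *Slc1a*, *Slc3a*, *Slc6a*, *Slc7a*, *Slc36a*, *Slc38a* or *Slc43a* followed by a number, 1 gene excepted by the rule, and these were 62 of the 19938 genes tested. They were measured by 74 probes, and 9 of them had several. Of these 62 genes, 61 encode carriers or their partner chains, whereas *Slc7a6os*, named for the strand opposite *Slc7a6*, matched by its letters and is no transporter. Peritoneal macrophages, phagocytes of the abdominal cavity, came from C57BL/6 mice, which the study's methods list as wild-type. The LPS group received 100 ng/ml LPS, the outer membrane lipid of Gram-negative bacteria that is sensed by Toll-like receptor 4, for 6 h. The PBS group received phosphate-buffered saline for the same time. Each group was 2 samples, each on a single-colour Mouse OneArray Plus array. The labels call the samples biological replicates but give no mouse or culture of origin. The p-values therefore cover no more than the spread seen between the arrays of a group, a gene's own spread being moderated in limma by that of all genes. The study's methods describe male mice and macrophages prepared by a published procedure, and no purity is stated for the cells put on the arrays.

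Amino acids cross membranes on carriers that differ in substrate, in the ion that drives them and in the membrane they sit in. The Slc7 light chains work only when bound to a heavy chain, Slc3a2 or Slc3a1, and exchange one amino acid for another, and the cationic Slc7 carriers work alone and bring in arginine and lysine. Slc1 carriers use sodium to take up glutamate or small neutral amino acids, Slc38 carriers use sodium to move glutamine and other neutral amino acids, Slc36 carriers use protons and work partly on lysosomes, and the Slc6 family uses sodium and chloride to move amino acids, osmolytes, creatine and monoamines. In macrophages these carriers supply cystine for glutathione, arginine for nitric oxide and glutamine as fuel.

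Of the 62 genes, 2 rose with LPS and 2 fell at a limma adjusted p under 0.05. *Slc7a11*, the cystine-glutamate exchanger light chain, was 6.07-fold higher in LPS macrophages than in PBS macrophages, and *Slc6a12*, the betaine and GABA carrier, was 3.004-fold higher. *Slc36a1*, a proton-coupled amino acid carrier of lysosomes and the cell surface, was 4.68-fold lower, and *Slc6a8*, the creatine carrier, was 2.77-fold lower. The shares of the transporters called higher and lower were 3.23% each, against 3.22% of all genes called higher (642) and 2.32% called lower (462), so the number of calls was close to the background and is no result about the transporters as a set. The values of both LPS arrays lay above both PBS arrays for 20 transporters, 32.3%, against 32.2% of all genes, and below both for 14, 22.6%, against 27.5% of all genes. The median log2 difference, LPS minus PBS, was 0.03 over the transporters and 0.04 over all genes, and 35 transporters, 56.5%, differed by less than 0.5 either way, against 60.1% of all genes. At an unadjusted p under 0.05, 8 transporters were higher, 12.9% against 12% of all genes, and 11 were lower, 17.7% against 13.9% of all genes. When arrays were scaled to their 75th percentile, 398 genes were called higher and 131 lower, and among the transporters 1 was higher and 2 were lower. These were *Slc7a11* higher and *Slc36a1* and *Slc7a13* lower, *Slc7a13* being above background on no array. *Slc6a12* and *Slc6a8* were not called there.

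**Figure D1:**
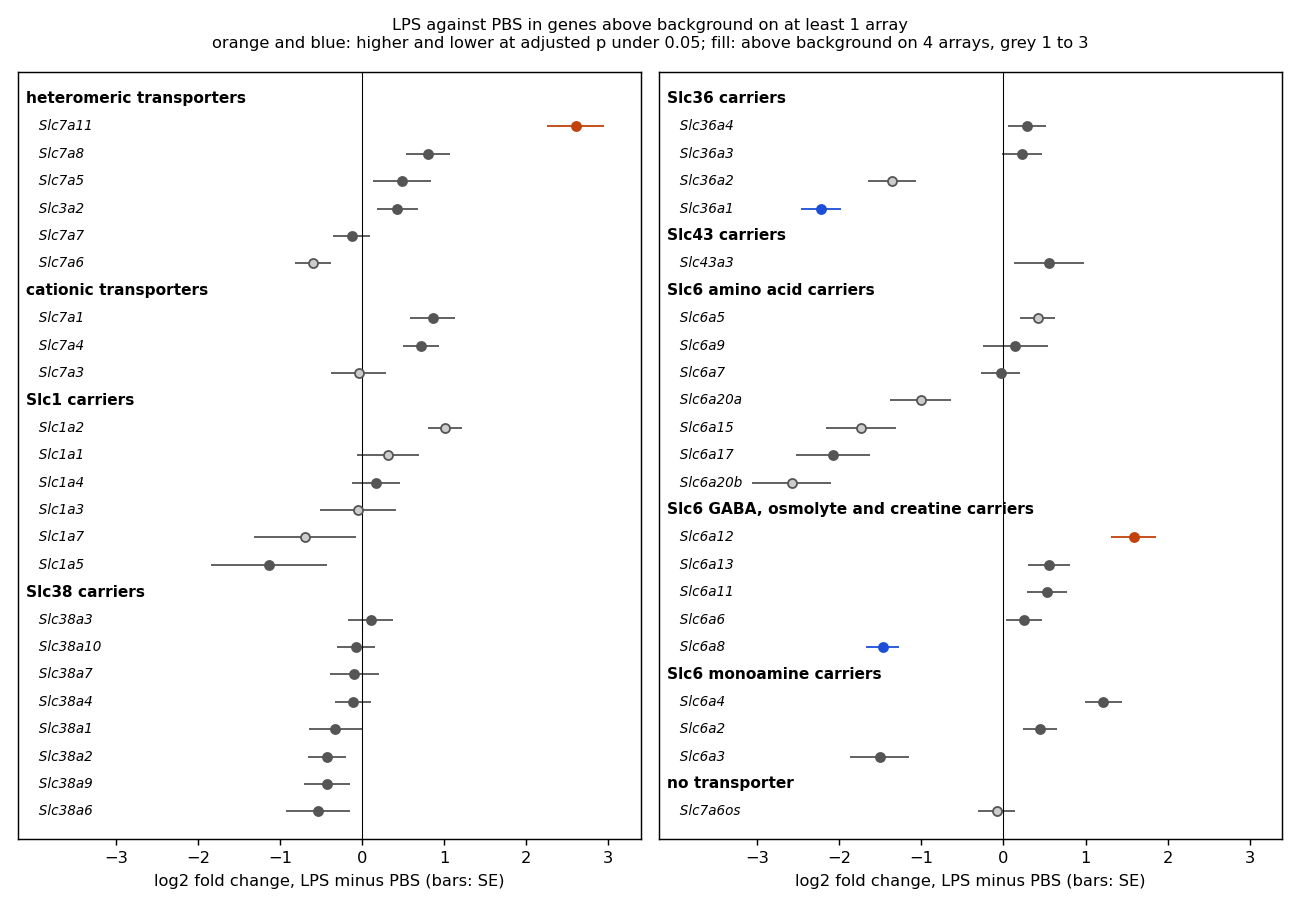
Log2 fold change, LPS minus PBS, of the 44 genes above background on at least 1 array (points) with its standard error (bars), ordered by family and by size. Of the coloured points, *Slc7a11* at 2.60 and *Slc6a12* at 1.59 lie on the right and *Slc36a1* at -2.23 and *Slc6a8* at -1.47 on the left; dark fill means above background on all 4 arrays and grey on 1 to 3.

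A gene was counted as above background on an array where its detection p was under 0.05. By that measure 32 of the 62 genes were above background on all 4 arrays, 12 on 1 to 3 arrays and 18 on none. The log2 levels given here are quantile-normalized signals of the brightest probe of a gene, and levels of different probes are not comparable with each other. LPS replicate 1 was the dimmest array, with a median signal of 683 before normalization, against 1054 in LPS replicate 2 and 1026 and 1047 in the PBS samples, and with 55.8% of probes above background, against 61.7% to 63.3% on the other arrays. The LPS label was borne out by *Il6* (16.82 and 17.03 in LPS macrophages, against 8.08 and 9.13 in PBS macrophages) and by *Tnf* (17.43 and 17.40, against 12.12 and 11.75). All 6 macrophage markers measured, *Adgre1* and *Csf1r* among them, were above background on every array. So were 3 of 5 B cell markers (*Cd79a*, *Cd79b* and *Pax5*), 3 of 5 T cell markers (*Cd3e*, *Cd3g* and *Cd8a*), 3 of 4 mast cell markers (*Cma1*, *Cpa3* and *Tpsb2*), 4 of 5 mesothelial markers and, of 5 neutrophil markers, *Mpo*. Among the markers on no array above background were *Ms4a1* of B cells, *Cd3d* of T cells, *Elane* and *S100a8* of neutrophils and *Fcer1a* of mast cells. The part of other cells in the results was not tested. Of the listed markers of other cells, *Lck* rose (log2 difference of 3.61, adjusted p = 0.00460) and the remaining 23 did not pass the test. The summed level of 5 mesothelial markers was 14.10 and 15.84 (log2) in LPS replicates 1 and 2, against 14.61 and 16.02 in PBS replicates 1 and 2, higher in replicate 2 of each group. In such bulk samples, fewer cells of a type and less RNA per cell cannot be told apart.

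Among the 12 genes of the heteromeric carriers, *Slc7a11* rose and none fell, shares of 8.33% and 0%, against 3.22% and 2.32% of all genes. At an unadjusted p under 0.05 in limma, 3 were higher and 3 lower, against 12% and 13.9% of all genes. Of these, *Slc7a9*, *Slc7a10* and *Slc7a13* were above background on no array. The log2 level of *Slc7a11* was 14.24 and 14.98 in LPS macrophages and 12.28 and 11.74 in PBS macrophages. The groups did not overlap, and the distance between them was wider than that between replicates. The log2 difference was 2.60 (SE 0.35, 95% confidence interval 1.71 to 3.49, adjusted p = 0.0239). It stayed past the threshold without LPS replicate 1 (2.91, adjusted p = 0.0495) and missed it without LPS replicate 2 (2.23, 0.0506), without PBS replicate 1 (2.87, 0.104) and without PBS replicate 2 (2.40, 0.168). These fits give the single array left in a group the spread of the other group.

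The promoter windows of *Slc7a11*, *Slc6a12* and *Slc36a1* are shown because these genes passed the test, and *Slc6a8*, which also passed it, has none. The windows were searched for the element that amino acid shortage acts through and for elements of inflammatory and antioxidant factors. They are RefSeq windows of 300 bases on GRCm38.p6, 250 before and 50 after an annotated start, which 45 of the 62 genes have. Each is written 5′ to 3′ along the gene, with the motif matches in capitals. In *Slc7a11* (chr3:50443564-50443863, minus strand) these are matches to the amino acid response element core TGATGNAA, at bases 185 to 192 and, on the opposite strand, 204 to 211.
Slc7a11: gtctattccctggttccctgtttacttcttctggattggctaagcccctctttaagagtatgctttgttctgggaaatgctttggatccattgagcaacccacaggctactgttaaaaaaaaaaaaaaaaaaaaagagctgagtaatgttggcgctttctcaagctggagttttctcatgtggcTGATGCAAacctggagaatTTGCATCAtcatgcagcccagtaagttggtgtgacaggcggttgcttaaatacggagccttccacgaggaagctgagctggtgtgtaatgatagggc
In *Slc6a12* (chr6:121342324-121342623, plus strand) they are an NF-kB motif at bases 118 to 127 and an AP-1 motif, TGANTCA, at bases 193 to 199.
Slc6a12: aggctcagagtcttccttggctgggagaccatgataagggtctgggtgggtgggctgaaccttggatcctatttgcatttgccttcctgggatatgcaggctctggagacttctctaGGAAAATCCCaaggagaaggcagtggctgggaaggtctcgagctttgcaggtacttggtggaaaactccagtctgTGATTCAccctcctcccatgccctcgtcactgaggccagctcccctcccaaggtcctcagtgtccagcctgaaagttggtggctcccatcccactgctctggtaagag
In *Slc36a1* (chr11:55204090-55204389, plus strand) it is an antioxidant response element, TGACNNNGC, at bases 252 to 260.
Slc36a1: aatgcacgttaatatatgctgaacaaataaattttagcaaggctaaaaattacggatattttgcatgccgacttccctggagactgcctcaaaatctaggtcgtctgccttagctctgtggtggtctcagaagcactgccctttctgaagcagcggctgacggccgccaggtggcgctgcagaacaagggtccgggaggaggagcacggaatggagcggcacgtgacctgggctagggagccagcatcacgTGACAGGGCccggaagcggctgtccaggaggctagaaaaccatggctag

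All motifs were searched on both strands, in 66 windows of the transporters and in all 32851 windows of the same length. Within a window of a transporter no 2 matches overlapped. Windows of the same gene can share bases, so a site can be counted in several windows, as in *Slc7a7* and *Slc7a6*. The amino acid response element core was in 4 windows of *Slc7a11*, *Slc1a4* and *Slc7a7*, and in 3.97% of all windows. Of these genes *Slc1a4* and *Slc7a7* did not pass the test. The antioxidant element was in 11 windows of 9 transporters and in 12.4% of all windows, the AP-1 motif in 9 windows of 8 transporters and in 7.81%, and the NF-kB motif in 8 windows of 7 transporters and in 4.505%. The interferon response motif, GAAA, any 2 bases and GAAA, was in none of the 66 windows and in 3.44% of all. The other 4 windows of *Slc6a12* held none of these motifs. A match is a string of letters and not a measured site.

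The heavy chain *Slc3a2*, without which the Slc7a11 light chain does not reach the cell surface, had log2 levels of 17.36 and 17.00 in LPS macrophages and 16.91 and 16.60 in PBS macrophages. The LPS arrays were both higher, by a mean of 0.43 (SE 0.25, adjusted p = 0.330), which did not pass the test, and its other probe differed by 0.46. With the 75th percentile the difference was 0.89, with cyclic loess 0.72, and neither was called. *Slc3a1*, the heavy chain of kidney and gut, was not above background on any array (log2 levels of 6.76 and 7.51 in LPS macrophages, against 7.28 and 7.61 in PBS macrophages).

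*Slc7a8*, a light chain for large and small neutral amino acids, had 14.72 and 15.15 in LPS macrophages and 14.32 and 13.94 in PBS macrophages. Its groups did not overlap, and the log2 difference of 0.80 had an unadjusted limma p of 0.0292 and an adjusted p of 0.151. *Slc7a5*, the carrier for leucine and other large neutral amino acids that pairs with Slc3a2, had 11.14 and 11.96 in LPS macrophages, against 11.28 and 10.85 in PBS macrophages. Its groups overlapped, with LPS replicate 2 alone standing above the PBS arrays (log2 difference of 0.49, SE 0.35, adjusted p = 0.421), and without LPS replicate 2 the difference was 0.08.

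*Slc7a7*, the light chain that exports arginine against sodium and neutral amino acids, had 12.63 and 12.40 in LPS macrophages and 12.78 and 12.50 in PBS macrophages. The values of the groups interleaved and the log2 difference was -0.13 (95% confidence interval -0.71 to 0.46, adjusted p = 0.744). *Slc7a6*, which does the same in other tissues, had 8.91 and 9.21 in LPS macrophages, above background on 1 array, and 9.60 and 9.71 in PBS macrophages, above background on both. The log2 difference of -0.60 did not pass the test (adjusted p = 0.179). The other light chains, *Slc7a9*, *Slc7a10*, *Slc7a12*, *Slc7a13* and *Slc7a15*, were not above background on any array. Of these, *Slc7a13* was called lower with the 75th percentile, the authors' processed values and the replicate block, at levels with no measured direction.

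**Figure D2:**
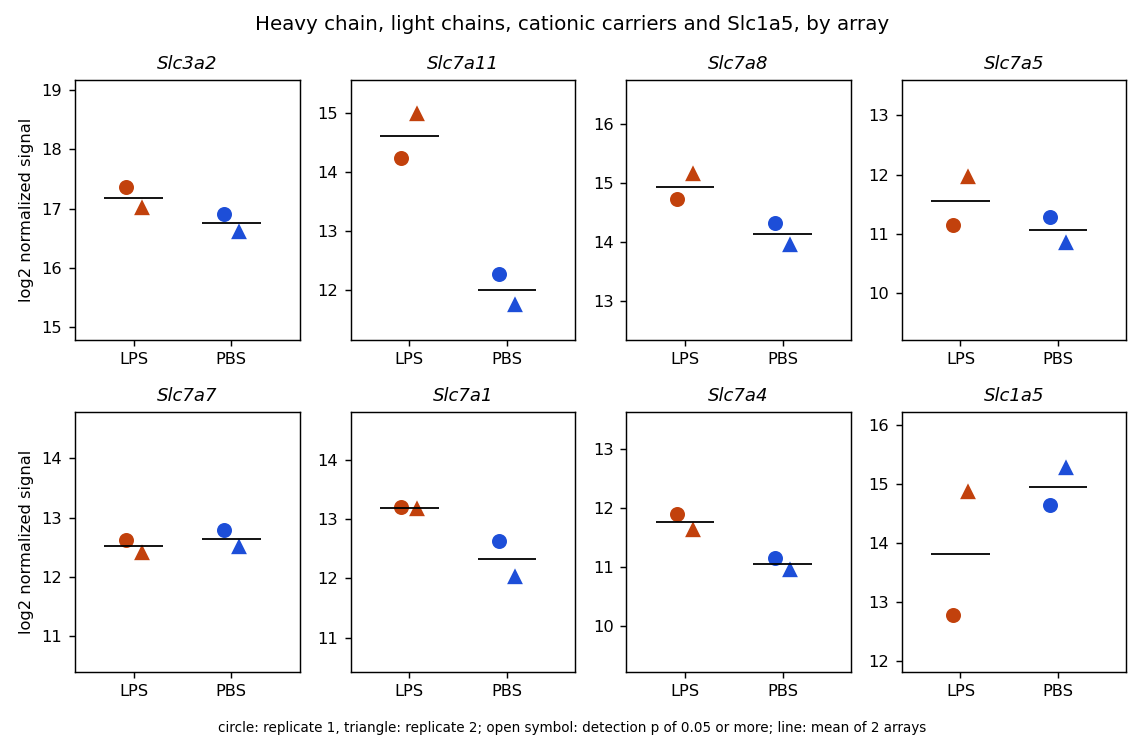
Log2 normalized signal on each array (LPS left, PBS right; circle for replicate 1, triangle for replicate 2; line for the mean of 2 arrays) of the heavy chain, light chains, cationic carriers and the glutamine carrier *Slc1a5*. *Slc7a11* has the widest distance between groups, *Slc7a8*, *Slc7a1*, *Slc7a4* and *Slc3a2* are higher on both LPS arrays without passing the test, and in *Slc1a5* LPS replicate 1 lies at 12.78, apart from the other arrays at 14.64 to 15.27.

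Of the 4 cationic carriers none passed the test in limma, and 2 were higher and none lower at an unadjusted p under 0.05, a level that 12% and 13.9% of all genes reached. *Slc7a1*, the main arginine and lysine importer of many cells, had 13.21 and 13.18 in LPS macrophages, against 12.64 and 12.03 in PBS macrophages. Both LPS arrays were higher, and the log2 difference of 0.86 (SE 0.28, 95% confidence interval 0.16 to 1.56) had an adjusted p of 0.141. *Slc7a4*, a member of this branch by sequence, had 11.90 and 11.63 in LPS macrophages and 11.15 and 10.95 in PBS macrophages, a log2 difference of 0.72 (adjusted p = 0.135). Its dimmer probe differed the other way, by -0.33, so the probes of this gene disagreed. *Slc7a3* was above background on 1 array of each group with a log2 difference of -0.04, and *Slc7a14* was not above background on any array.

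Among the 7 Slc1 carriers none passed the test (at an unadjusted p under 0.05 in limma, 1 higher and 0 lower, against 12% and 13.9% of all genes), and only *Slc1a4* and *Slc1a5* were above background on all 4 arrays. *Slc1a5*, the sodium-driven glutamine carrier, had 12.78 and 14.87 in LPS macrophages, against 14.64 and 15.27 in PBS macrophages. LPS replicate 2 lay between the PBS arrays and LPS replicate 1 below both, and the log2 difference of -1.13 had a standard error of 0.71 (adjusted p = 0.363). It was -2.16 without LPS replicate 2 (adjusted p = 0.0588) and -0.09 without LPS replicate 1 (0.896). On the same arrays the summed level of the mesothelial markers above was lowest in LPS replicate 1, while *Krt19* among them was lowest in PBS replicate 2. The part of these markers in this difference was not tested. *Slc1a4*, a carrier of alanine, serine and cysteine, had 10.46 and 10.73 in LPS macrophages and 10.74 and 10.11 in PBS macrophages (log2 difference of 0.17, adjusted p = 0.738).

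The glutamate carriers of this family were dim. *Slc1a2*, which clears glutamate around synapses, had 9.35 and 9.49 in LPS macrophages, above background on 1 array, and 8.38 and 8.44 in PBS macrophages, above background on none. The mean LPS level was 1.33-fold over the dimmest level above background on each PBS array. LPS replicate 1 was itself not above background, so this is no firm minimum. The fitted log2 difference was 1.01 (adjusted p = 0.0595), and the other probe differed by 1.26. With the mean of the probes in place of the brightest the adjusted p was 0.0412. *Slc1a1* and *Slc1a3* were above background on 1 and 2 of the 4 arrays, with log2 differences of 0.31 and -0.05, *Slc1a6* on none, and *Slc1a7* on 3, with 9.14 and 11.01 in LPS macrophages and 10.80 and 10.75 in PBS macrophages (log2 difference of -0.70, adjusted p = 0.504). *Slc1a7* was called lower without LPS replicate 2 only.

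The 11 Slc38 carriers held no call in limma in either direction. None passed an unadjusted p under 0.05, a level that 12% (higher) and 13.9% (lower) of all genes reached. On the brightest probe 10 of them differed by less than 0.5 on the log2 scale, against 60.1% of all genes. Other probes of *Slc38a1* and *Slc38a9* differed by more, and 3 of the 11 genes were above background on no array. *Slc38a2*, the sodium-driven carrier that cells raise when amino acids run short, had 12.40 and 12.74 in LPS macrophages, against 13.08 and 12.91 in PBS macrophages. Both LPS arrays were lower, by a mean of 0.43 that did not pass the test (SE 0.23, adjusted p = 0.308). *Slc38a1*, its close relative, had 12.31 and 12.55 in LPS macrophages and 13.15 and 12.36 in PBS macrophages. Its groups overlapped (log2 difference of -0.33), and its other probes differed by 0.39 and, for a probe never above background, 0.81, so its direction was not settled.

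*Slc38a9*, which senses arginine on lysosomes and signals to mTORC1, had 10.69 and 10.24 in LPS macrophages, against 11.11 and 10.67 in PBS macrophages on its brightest probe. The groups overlapped there (log2 difference of -0.43, adjusted p = 0.378), whereas its other probes did not: the middle probe had 10.02 and 10.13 in LPS macrophages and 11.04 and 11.38 in PBS macrophages, a log2 difference of -1.13, and the dimmest had 6.93 and 7.48, above background on neither array, against 9.83 and 10.06, above background on both, at least 1.72-fold lower by the bound. With the mean of the probes the fitted difference was -1.43 (adjusted p = 0.0236), a value that takes in the dimmest probe's levels below background.

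*Slc38a7*, a lysosomal glutamine carrier, had 13.01 and 12.52 in LPS macrophages and 13.12 and 12.61 in PBS macrophages, with replicate 1 the higher in each group and a log2 difference of -0.10 (95% confidence interval -0.85 to 0.66). *Slc38a6* had 11.53 and 12.01 in LPS macrophages and 11.82 and 12.80 in PBS macrophages, a log2 difference of -0.54, and its other probe differed by -1.21 with LPS replicate 1 lowest (9.55). *Slc38a10* had 9.88 and 9.53 in LPS macrophages and 9.85 and 9.71 in PBS macrophages. For these genes the groups overlapped. *Slc38a3*, a glutamine carrier of liver and brain, had 10.20 and 9.60 in LPS macrophages and 9.86 and 9.73 in PBS macrophages, and *Slc38a4* had 9.98 and 9.94 in LPS macrophages and 10.23 and 9.92 in PBS macrophages. *Slc38a5*, *Slc38a8* and *Slc38a11* were not above background on any array.

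Of the 4 Slc36 carriers, *Slc36a1* fell and none rose, shares of 25% and 0%, against 2.32% and 3.22% of all genes. At an unadjusted p under 0.05 in limma, 0 were higher and 2 lower, against 12% and 13.9% of all genes. *Slc36a1* had 11.50 and 11.70 in LPS macrophages and 13.63 and 14.03 in PBS macrophages. The replicates lay within 0.4 of each other while the groups were more than 1.9 apart. The log2 difference was -2.23 (SE 0.24, 95% confidence interval -2.84 to -1.61, adjusted p = 0.0140), and it was -2.16 with the 75th percentile and -2.18 under cyclic loess, called each time. It stayed past the threshold without LPS replicate 2 (-2.33, adjusted p = 0.0411) and missed it without LPS replicate 1 (-2.09, 0.0644), without PBS replicate 1 (-2.41, 0.0786) and without PBS replicate 2 (-2.08, 0.128).

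*Slc36a4*, its relative with high affinity for proline and tryptophan, had 12.13 and 11.82 in LPS macrophages, against 11.76 and 11.62 in PBS macrophages. The LPS arrays were the higher by 0.29 (95% confidence interval -0.29 to 0.87, adjusted p = 0.457), which did not pass the test. *Slc36a3* had 9.47 and 9.76 in LPS macrophages and 9.21 and 9.56 in PBS macrophages, overlapping. *Slc36a2* had 7.79 and 7.88 in LPS macrophages, not above background on either array, and 8.86 and 9.54 in PBS macrophages, above background on 1. The mean PBS level was 1.02-fold over the dimmest level above background on each LPS array. PBS replicate 1 was itself not above background, so this is no firm minimum. The fitted difference of -1.36 had a limma adjusted p of 0.0684.

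None of the 3 Slc43 carriers passed the test in limma, nor an unadjusted p under 0.05, a level that 12% (higher) and 13.9% (lower) of all genes reached. *Slc43a3*, whose human counterpart carries purine nucleobases, had 12.23 and 13.39 in LPS macrophages, against 12.05 and 12.45 in PBS macrophages. The difference of 0.56 rested on LPS replicate 2, without which it was -0.02, and without LPS replicate 1 it was 1.11 (adjusted p = 0.146). The summed level of the mesothelial markers was also higher in replicate 2 of each group. *Krt19* and *Msln* among them were lower in PBS replicate 2 than in PBS replicate 1. The part of these markers was not tested. *Slc43a1* and *Slc43a2*, carriers of large neutral amino acids, were not above background on any array.

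The 6 Slc6 carriers of GABA, osmolytes and creatine held 1 rise and 1 fall, 16.7% each, against 3.22% and 2.32% of all genes. At an unadjusted p under 0.05 in limma, 1 was higher and 1 lower, against 12% and 13.9% of all genes. *Slc6a12*, which brings betaine into cells as an osmolyte, had 11.49 and 12.05 in LPS macrophages and 10.06 and 10.31 in PBS macrophages. Both LPS arrays were higher than both PBS arrays, and the log2 difference was 1.59 (SE 0.27, 95% confidence interval 0.89 to 2.29, adjusted p = 0.0424). The size hardly moved with the scaling, but the adjusted p was 0.0926 with the 75th percentile, 0.0691 under cyclic loess and 0.121 from the authors' processed values. Leaving out an array gave adjusted p of 0.0642 without LPS replicate 1, 0.0747 without LPS replicate 2, 0.218 without PBS replicate 1 and 0.219 without PBS replicate 2.

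*Slc6a8* had 14.59 and 14.53 in LPS macrophages and 15.99 and 16.07 in PBS macrophages. The replicates of each group were less than 0.1 apart, and the log2 difference was -1.47 (SE 0.20, 95% confidence interval -1.98 to -0.96, adjusted p = 0.0251). It was -1.17 with the 75th percentile (adjusted p = 0.111), -1.26 under cyclic loess, at which it was still called, and -1.24 from the authors' processed values (0.0935). Without any 1 array it missed the threshold, at 0.0760 without LPS replicate 1, 0.0576 without LPS replicate 2, 0.154 without PBS replicate 1 and 0.205 without PBS replicate 2.

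*Slc6a6*, the taurine carrier, had 15.96 and 16.23 in LPS macrophages, against 15.91 and 15.77 in PBS macrophages. The distance of 0.25 did not pass the test (SE 0.22, adjusted p = 0.495), and it was 0.61 with the 75th percentile, also not called. The GABA carriers *Slc6a13* (11.45 and 11.02 in LPS macrophages, 10.83 and 10.53 in PBS macrophages) and *Slc6a11* (10.22 and 9.87, against 9.65 and 9.37) were higher on both LPS arrays by 0.56 and 0.53, with adjusted p of 0.245 and 0.241.

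**Figure D3:**
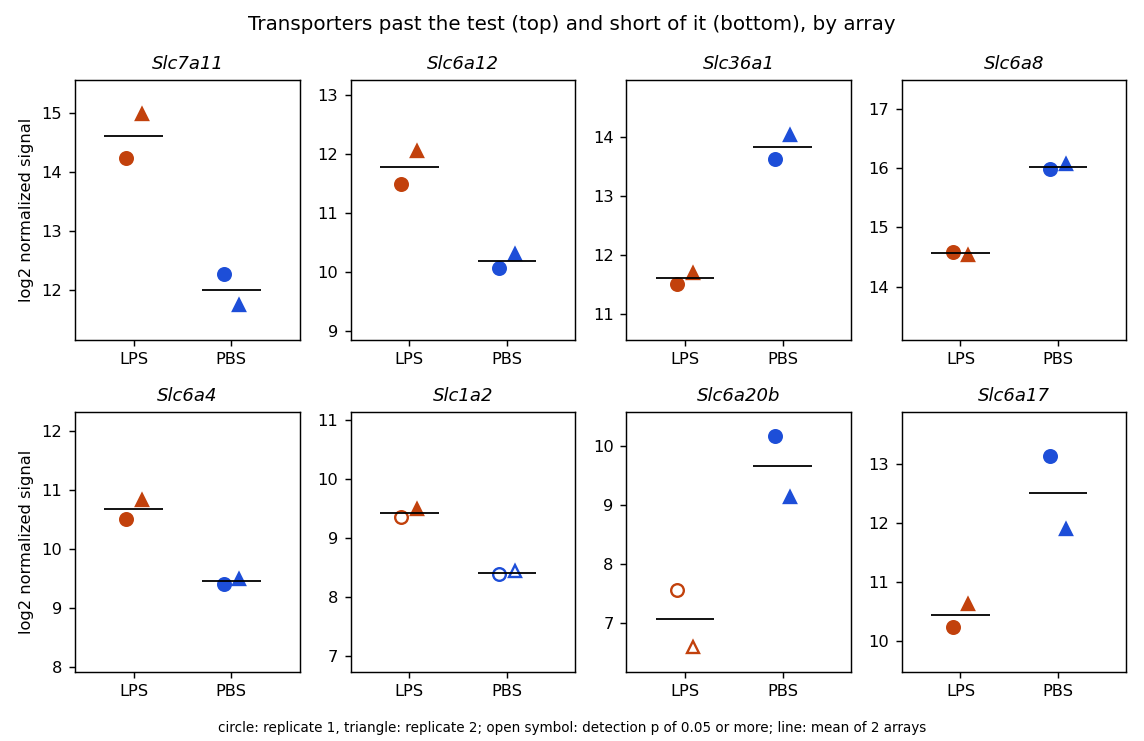
Log2 normalized signal on each array (LPS left, PBS right; circle for replicate 1, triangle for replicate 2; open where the detection p was 0.05 or more; line for the mean of 2 arrays) of the 4 transporters past the test (top) and of 4 short of it (bottom). In all 8 the groups do not overlap. Over all genes both LPS arrays lay above both PBS arrays in 32.2% and below both in 27.5%. *Slc6a20b* on LPS arrays and *Slc1a2* on 3 of 4 arrays were not above background.

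Among the 11 Slc6 carriers of amino acids none passed the test. At an unadjusted p under 0.05 in limma, 0 were higher and 4 lower, against 12% and 13.9% of all genes. The LPS arrays lay below both PBS arrays for 5 of the 11 and above for 4, against 27.5% and 32.2% of all genes. *Slc6a14*, *Slc6a16*, *Slc6a18* and *Slc6a19* among them were above background on no array and have no measured direction. *Slc6a17*, a carrier of neutral amino acids in synaptic vesicles, had 10.24 and 10.63 in LPS macrophages, against 13.12 and 11.90 in PBS macrophages. The groups were apart by more than 1.2, yet the PBS arrays were nearly as far from each other, and the log2 difference of -2.08 (SE 0.45) had an adjusted p of 0.0689. It was -1.43 without PBS replicate 1. *Slc6a20b*, a proline and glycine carrier of the epithelial type, had 7.55 and 6.59 in LPS macrophages, not above background on either array, and 10.16 and 9.14 in PBS macrophages, above background on both. It was at least 1.40-fold lower in LPS macrophages by the bound, with a fitted difference of -2.58 and an adjusted p of 0.0508. It was called in 4 of 14 alternatives, with adjusted p of 0.0189 in the replicate block and 0.0370 to 0.0497 in the others, and was -1.28 with the mean of probes, its dimmer probe, above background on no array, differing by 0.02.

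*Slc6a20a*, its close relative, whose probe may take up some of the same RNA, had 7.55 and 8.46 in LPS macrophages and 9.21 and 8.81 in PBS macrophages, above background on 1 PBS array only (adjusted p = 0.174). *Slc6a15*, a carrier of branched-chain amino acids and proline, had 6.53 and 7.04 in LPS macrophages and 9.07 and 7.97 in PBS macrophages, again above background on 1 PBS array (adjusted p = 0.0885). Both genes were lower on the LPS arrays, at levels too near background to give a fold. The glycine carrier *Slc6a9* (10.37 and 11.33 in LPS macrophages, 10.97 and 10.45 in PBS macrophages) and the proline carrier *Slc6a7* (9.87 and 10.27, against 10.12 and 10.08) overlapped between groups. *Slc6a5*, the other glycine carrier, was above background on 1 LPS array, and *Slc6a14*, *Slc6a16*, *Slc6a18* and *Slc6a19* on none.

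The 3 monoamine carriers were above background on all 4 arrays, and none passed the test in limma. At an unadjusted p under 0.05, 1 was higher and 1 lower, against 12% and 13.9% of all genes. Their groups did not overlap, LPS being above for 2 and below for 1, against 32.2% and 27.5% of all genes. *Slc6a4*, the serotonin carrier, had 10.50 and 10.84 in LPS macrophages and 9.41 and 9.50 in PBS macrophages. Its log2 difference of 1.22 (SE 0.23) had an adjusted p of 0.0505, the nearest to the threshold among the transporters not called, and it was called in 4 of 14 alternatives, with adjusted p of 0.0379 to 0.0474. *Slc6a3*, the dopamine carrier, had 11.62 and 10.78 in LPS macrophages, against 12.96 and 12.46 in PBS macrophages (log2 difference of -1.51, adjusted p = 0.0855, and 0.0418 with the replicate block). *Slc6a2*, the noradrenaline carrier, had 11.02 and 10.91 in LPS macrophages and 10.58 and 10.46 in PBS macrophages (log2 difference of 0.44, adjusted p = 0.246).

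Genes of the pathways that these carriers feed were given from 6 lists, 93 genes in all, of which 2 rose and 2 fell, shares of 2.15% each against the 3.22% and 2.32% of all genes. Their median log2 difference was 0.06. In the amino acid response and ATF4 list, 1 of 23 measured genes rose (4.35%) and none fell, with a median of 0.21. That gene was *Cebpb*, a transcription factor of the acute phase response, with 17.00 and 17.12 in LPS macrophages and 15.93 and 15.68 in PBS macrophages (log2 difference of 1.26, adjusted p = 0.0423). It was called in 6 of 14 alternatives and not with the 75th percentile, the authors' processed values, the methods' t-test, the replicate block (adjusted p = 0.0555) or any 1 array left out (0.0889 to 0.290). The regulator *Atf4* itself had 17.21 and 17.25 in LPS macrophages and 17.51 and 17.46 in PBS macrophages (log2 difference of -0.26, adjusted p = 0.453; 0.23 with the 75th percentile), and *Asns*, asparagine synthetase, had 13.87 and 14.52, against 14.63 and 14.16 (adjusted p = 0.720).

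In the glutathione list, for which cystine is the limiting supply, none of 16 genes passed the test in either direction (2 higher and 1 lower in limma where p was left unadjusted, as were 12% and 13.9% of all genes), with a median of 0.41. The subunits of the enzyme that joins glutamate to cysteine, *Gclc* and *Gclm*, differed by -0.62 (limma adjusted p = 0.237) and -0.19 (0.812). The rise of *Slc7a11* was 2.60 on the same scale. *Nfe2l2* of the list was higher on both LPS arrays, by 0.50 (limma adjusted p = 0.210). The LPS arrays lay above both PBS arrays for 9 of the 16 genes, 56.25%, against 32.2% of all genes. They lay below both for 3, 18.75%, against 27.5%. Of 15 genes of glutamine and glutamate metabolism, *Glul* fell and none rose, shares of 6.67% and 0%, against 2.32% and 3.22% of all genes. *Glul*, glutamine synthetase, had 13.98 and 14.12 in LPS macrophages, against 15.89 and 15.91 in PBS macrophages (log2 difference of -1.85, SE 0.20, adjusted p = 0.0146), and the replicates were within 0.2 of each other. It was called in 8 of 14 alternatives, with adjusted p of 0.0543 with the 75th percentile and 0.0537 from the authors' processed values, and not without LPS replicate 1 (0.0612), PBS replicate 1 (0.117) or PBS replicate 2 (0.149). None of 12 genes of branched-chain amino acid breakdown and none of 15 of serine, glycine and proline metabolism passed the test, with medians of -0.06 and 0.04. At an unadjusted p under 0.05 in limma, branched-chain breakdown had 0 higher and 3 lower and the serine list 1 higher and 1 lower, against the same shares of all genes.

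Of 16 amino acid carriers outside these families, 1 rose and 1 fell, 6.25% each, against 3.22% and 2.32% of all genes. The median was -0.07. At an unadjusted p under 0.05 in limma, 2 were higher and 3 lower, against 12% and 13.9% of all genes. *Slc25a22*, which carries glutamate into mitochondria, had 14.78 and 15.03 in LPS macrophages and 12.75 and 12.94 in PBS macrophages (log2 difference of 2.06, adjusted p = 0.0135). *Ctns*, which releases cystine from lysosomes, had 10.85 and 10.20 in LPS macrophages, against 12.62 and 12.40 in PBS macrophages (log2 difference of -1.99, limma adjusted p = 0.0299). *Slc15a3*, also of this list, was higher on both LPS arrays by 1.05 and did not pass the test (limma adjusted p = 0.0884). *Slc25a22* was called in 11 of 14 alternatives, *Ctns* in 8, with adjusted p of 0.0503 with the 75th percentile and 0.0504 from the authors' processed values. Without PBS replicate 1 or 2 neither was called, and without LPS replicate 2 *Ctns* was not (adjusted p = 0.0505).

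**Figure D4:**
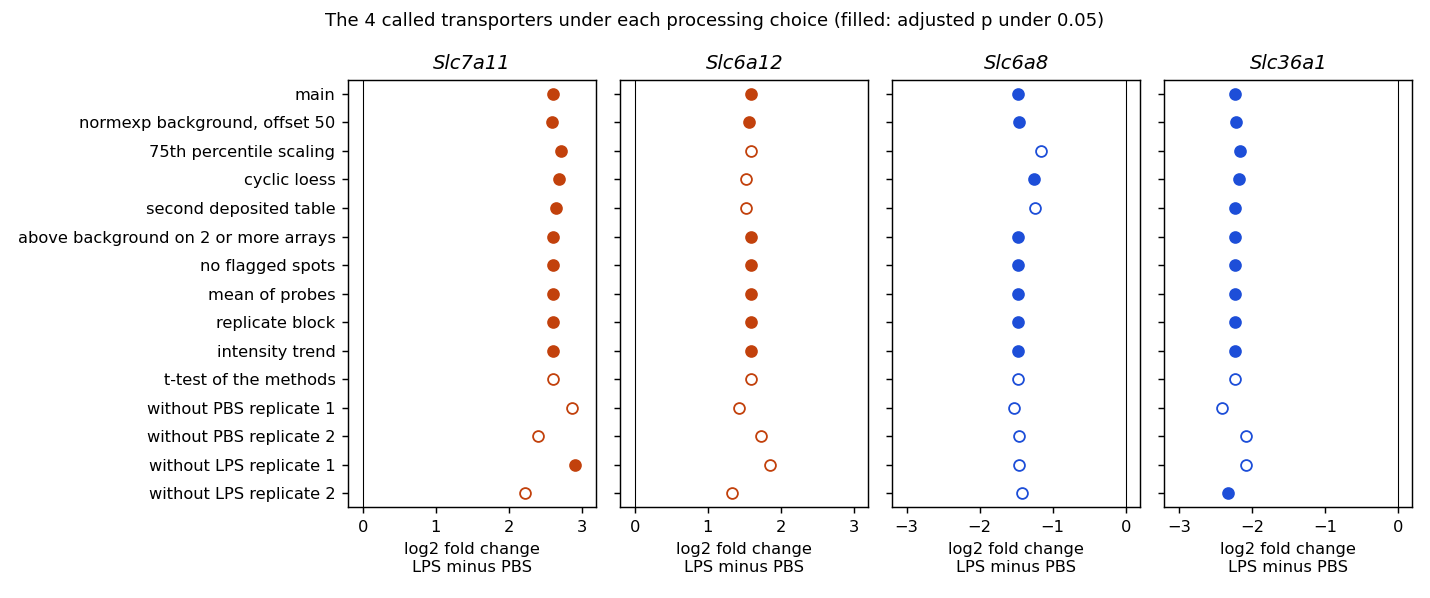
Log2 fold change, LPS minus PBS, of the 4 transporters past the test under the main setting (top) and each of 14 alternatives, filled where the adjusted p was under 0.05. Every point keeps its sign, which several alternatives could not change because they leave the estimate as it is. The ranges are 2.23 to 2.91 for *Slc7a11*, 1.33 to 1.86 for *Slc6a12*, -1.53 to -1.17 for *Slc6a8* and -2.41 to -2.08 for *Slc36a1*. Open points gather at the lower rows, where an array was left out, and at the t-test.

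Leaving out dim genes or flagged spots, or taking the mean of probes, left the estimates of the 4 called transporters unchanged. So did the replicate block, the intensity trend and the t-test. Their groups did not overlap, so omitting 1 array could hardly turn a sign either. That the 4 calls kept their direction under all 14 alternatives was thus largely fixed in advance. *Slc7a11* and *Slc36a1* stayed past the threshold in 10 of these, *Slc6a8* in 7 and *Slc6a12* in 6. With 2 arrays a group, the number of arrays limits the precision: the 95% confidence interval of a transporter that did not pass the test often reached beyond 0.5 on the log2 scale, as for *Slc7a1*, *Slc7a5* and *Slc1a5*, so a missed threshold does not show that its level was the same in both groups.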

How the data were processed

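Gene expression was measured on 4 single-colour arrays, 2 of LPS and 2 of PBS macrophages. The authors deposited raw signal intensities per probe that had not been scaled between arrays. Beside them stand a detection p-value, deposited per probe and array, and a flag, deposited as a score of 0 or -50. Since 60 intensities, all on LPS replicate 1, lie at or below 0, background had been subtracted. A table of processed intensities, deposited by the authors as well, equals the raw ones times 1 constant per array and served as an alternative. The scanner, the image software, the meaning of the flag and the origin of the detection p-value and the constants were not given in the sources used here.

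Symbols came from the deposited table and were updated through mouse RefSeq synonyms. Among 19962 symbols 17486 needed no change, 1905 were replaced by the present symbol and 571 matched none and stayed. Quantile normalization was followed by log2. The probe with the highest mean stood for a gene. LPS was set against PBS by moderated linear models (lmFit and eBayes; R 4.3.3, limma 3.58.1, statmod 1.5.0) on 19938 genes with 2 residual and 3.11 prior degrees of freedom, the p-values being adjusted by Benjamini and Hochberg's method. Neither scaling nor test is stated for the arrays in the paper's methods, and the t-test named there for other data was an alternative. The fit was tested on simulated data.

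For a gene above background on no array of a group, a bound was taken as the brighter group's mean over the dimmer group's mean of, per array, the higher of its own level and the lowest level above background. It is no firm minimum where the brighter group was above background on 1 array only, as for *Slc1a2* and *Slc36a2*.

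Per-array values are given for transporters at an adjusted p under 0.05, those above background on at least 1 array with an unadjusted p under 0.05, the heavy chains, and the Slc7, Slc1, Slc36, Slc38 and Slc43 carriers above background on all 4 arrays. *Atf4*, *Asns*, *Chac1*, *Sesn2*, *Gclc*, *Gclm*, *Nfe2l2* and *Slc15a3* were named for their role. *Slc1a7* and the other Slc6 carriers were named to complete their families. All of these were named after their values were seen. Some genes are counted but not reported here. The transporters and pathway lists were chosen with earlier results of these data known.

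Alternatives covered background correction (normexp with an offset of 50), scaling (75th percentile, cyclic loess), the processed table, leaving out dim genes or flagged spots, the mean of probes, a replicate block, an intensity trend, the t-test and the omission of single arrays.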

Additional observations from a re-analysis of the deposited data

How the results depend on the processing

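Of the transporters, 2 were higher and 2 lower in the main setting. The number higher was 1 with the 75th percentile, cyclic loess and the second table, 4 with the mean of probes and 0 with the t-test of the methods; the number lower was 5 with the replicate block and 0 with the t-test. Leaving out 1 array gave 0 to 1 higher and 0 to 2 lower. Beside 0 calls the adjusted p of the t-test was 0.159 to 0.247 for the 4 genes called by limma, and at an unadjusted p under 0.05 the t-test gave 6 transporters higher and 2 lower, limma 8 and 11 (12.9% and 17.7%, against 12% and 13.9% of all genes), and limma without 1 array 5 to 9 and 7 to 13. Over all genes, 642 higher and 462 lower became 398 and 131 with the 75th percentile, 327 and 111 with the second table, 532 and 259 with cyclic loess and 0 and 0 with the t-test, and 39 to 415 higher and 1 to 641 lower with 1 array left out. Of the pathway list genes, 2 higher and 2 lower became 1 and 0 with the 75th percentile and with the second table, 2 and 5 with the filter on dim probes and 0 and 0 with the t-test, and 0 to 2 higher and 0 to 3 lower with 1 array left out. The cause of these changes was not tested.

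Replicate numbers are shared by the groups, but the labels do not say that they mark a shared mouse, litter or day. Same-numbered arrays deviated together with r = 0.239 across genes, and the crossed pairs with -0.239. The block called *Slc6a20b*, *Slc6a3* and *Slc7a13* lower besides the main calls, 5 in all, and 651 genes higher and 514 lower.

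Signs turned for genes short of the threshold. With the mean of probes *Slc38a1* was 0.29 and *Slc38a10* 0.16. With 1 array left out, the differences spanned -0.1481 (without PBS replicate 2) to 0.4782 for *Slc1a4*, -0.7459 to 0.061 (without PBS replicate 1) for *Slc38a1*, -0.2488 to 0.1006 (without LPS replicate 2) for *Slc38a10*, -0.1925 (without LPS replicate 1) to 0.4117 for *Slc38a3*, -0.2641 to 0.0365 (without PBS replicate 1) for *Slc38a4*, -0.3617 to 0.1574 (without PBS replicate 1; 0.1439 without LPS replicate 2) for *Slc38a7*, -0.6505 to 0.0591 (without LPS replicate 1) for *Slc3a1*, -0.0194 (without LPS replicate 2) to 1.1098 for *Slc43a3* and -0.2798 to 0.0122 (without PBS replicate 1) for *Slc7a7*. Of the 33 transporters recomputed under the alternatives, the others kept their sign. Outside these, *Slc7a3* and *Slc6a7* were 0.02 and 0.01 with the 75th percentile. Depth on arrays is signal over background: 18 transporters were above it on no array and have no measured direction.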
